A study of Mus musculus with 9 samples.

Results

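The splicing factors and heterogeneous nuclear ribonucleoproteins (hnRNPs) were read on the array by every probe whose platform gene symbol begins with Srsf or Sfrs and a digit, Hnrnp or Hnrp, Snrp, Sf3a or Sf3b, or U2af. This rule found 120 probes of 51 genes, and 80 probes of 40 genes had a detection p under 0.05 on at least 3 of the 9 arrays. These 80 probes, among 13641 detected probes of the array, are described here by family: 34 probes of 15 hnRNP genes, 21 probes of 9 SR protein genes, 12 probes of 7 Sm and other snRNP protein genes, 10 probes of 7 SF3A and SF3B genes, and 3 probes of 2 U2AF genes. Of the 80 probes, 55 were detected on all 9 arrays. The rule used gene names and detection, not the difference between groups. At its edge, 6 probes were detected on 3 arrays and entered, while 5 were detected on 2 arrays and did not.

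The cells were leukemia stem cells of the mouse driven by the MLL-AF9 oncogene, a fusion found in acute myeloid leukemia. They were on a C57BL/6 background with the Actin-dsRed reporter and were sorted from bone marrow of leukemic mice, after repeated transplantation, as dsRed positive cells low in Hoechst dye and positive for c-kit, CD34 and an Fc gamma receptor. Hairpin 94 against Csnk1a1 was carried in 3 samples and hairpin 97 against Csnk1a1 in 3 others, while 3 control samples carried a hairpin against luciferase (Luc). Csnk1a1 encodes casein kinase 1 alpha, which restrains beta-catenin and p53, and the design asks how its knockdown alters expression in primary leukemia cells. Whether the samples within a group are separate mice or cultures is not stated in the labels, and the p-values therefore speak only of the spread among these 9 samples, which may be technical.

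Splicing removes introns from precursor RNA on the spliceosome, which is built from small nuclear RNAs and their proteins. Sm proteins form a ring on the U1, U2, U4 and U5 RNAs, the U2AF heterodimer marks the 3′ splice site, and SF3A and SF3B hold the U2 particle on the branch point. SR proteins, named for a domain rich in arginine and serine, bind exons and promote their use, whereas hnRNPs coat the precursor RNA and often repress nearby sites. Genes of this machinery, among them Srsf2, Sf3b1 and U2af1, are recurrently mutated in human myeloid neoplasms.

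Fewer probes were detected on the Luc arrays. Detected probes numbered 13053 to 14280 with hairpin 94, 12969 to 14168 with hairpin 97 and 9262 to 10347 with Luc (exact two-sided permutation test of the 6 knockdown arrays against the 3 Luc arrays, p = 0.0119, the smallest that the 84 splits allow). Of the 80 splicing probes, 71 to 76 were detected per array with hairpin 94, 73 to 76 with hairpin 97 and 61 to 67 with Luc, a description only, since the rule itself used detection on these arrays, 6 of which carried knockdown. As a share of the signal of all detected probes on an array, they gave 0.841% to 0.973% with hairpin 94, 0.954% to 1.08% with hairpin 97 and 0.863% to 0.912% with Luc, so hairpin 94 spanned the Luc range and hairpin 97 lay above it. Brightness and knockdown cannot be told apart in this design, and all log2 levels and differences below are after normalisation, relative to the rest of each array. Several marker lists moved with the groups. In the granulocyte maturation list 11 of its 13 detected probes rose, the summed normalised signal was 11045.5 to 11158.9 with hairpin 94, 10685 to 12367.8 with hairpin 97 and 5496.4 to 6058.6 with Luc, and Mmp8 was the list's gene detected on 0 arrays. The summed signal of the cell division list was 3663.5 to 3973.8 with hairpin 94, 4774 to 5072.3 with hairpin 97 and 3588.5 to 3731.3 with Luc. The sort gate and leukemia program list summed to 5341.1 to 5562.5 with hairpin 94, 3725.3 to 3935.9 with hairpin 97 and 2781.9 to 3623.6 with Luc, with Hoxa10 detected on 0 arrays. The summed signal of the mast cell, basophil and eosinophil list was lower with knockdown, 404.9 to 440.6 with hairpin 94, 298.8 to 338.1 with hairpin 97 and 504.4 to 574.2 with Luc. Its probes did not move together: of the 5 detected, 2 rose and 2 fell for both hairpins minus Luc. Fcer1a, Il5ra, Mcpt8 and Ms4a2 were detected on 0 arrays. The sum of the T and NK cell list was also lower, at 661.3 to 789.3 with hairpin 94, 416.3 to 501.9 with hairpin 97 and 821.9 to 865.5 with Luc. The part of these markers and of brightness in the results was not tested. Of 7 T and NK cell markers with a probe, 5 were detected on 0 arrays, Cd2, Cd3d, Cd3g, Cd4 and Cd8a, and the list's 1 probe detected on at least 3 arrays, that of Nkg7, fell by 0.65 in log2 terms for both hairpins minus Luc (SE 0.13, limma adjusted p = 0.00323). Csnk1a1 itself had 1 probe, detected on 0 arrays, which leaves the knockdown unchecked here. The RNA came from bulk cells, in which fewer cells of a type and less RNA per cell cannot be told apart.

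**Figure D1:**
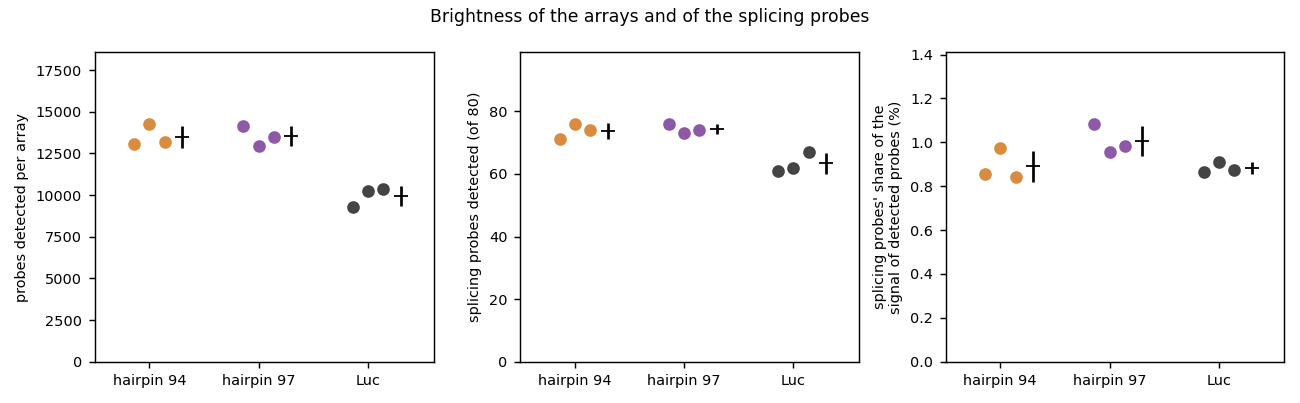
Probes detected per array (left), splicing probes detected per array out of 80 (middle) and the splicing probes' share of the signal of all detected probes in percent (right). Each point is an array, and the black bar is the mean ± SD of 3 arrays. The middle panel describes values that the choice of probes used. All Luc arrays detected fewer probes overall than the knockdown arrays, while the signal share of hairpin 94 overlapped Luc's and that of hairpin 97 lay above it.

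For both hairpins minus Luc, 17 of the 80 splicing probes rose and 9 fell at an adjusted p under 0.05 (limma, Benjamini-Hochberg over all 13641 detected probes). That is 32.5% of the splicing probes, against 40.2% of all detected probes; the rises made up 21.2% of the splicing probes against 25% of all, and the falls 11.2% against 15.2% of all. The median log2 difference was 0.10 over the splicing probes and 0.11 over all detected probes. The largest calls were those of Hnrnpm and Sf3b5 among the rises and by Hnrnpk, Hnrnpc, Sf3b4 and Sf3b2 among the falls. The 6 knockdown arrays lay wholly above the 3 Luc arrays for 17.5% of the splicing probes, against 21.5% of all detected probes, and wholly below for 11.2%, against 12.6% of all. Changes of over 2-fold past the threshold were seen for 4 of the 80 probes, 2 of Hnrnpm and 1 each of Hnrnpk and Hnrnpc, which is 5% against 5.53% of all detected probes. Of the 17 rises, 3 were probes of Srsf3, U2af2 and Hnrnpll detected on no Luc array, which passed the detection filter only through the knockdown arrays where they are high, so their calls are no test. Among the 71 splicing probes detected on at least 1 Luc array, 14 rose and 9 fell, 19.7% and 12.7%, against 20% and 19% of all probes so detected. Leaving out each of the 9 arrays in turn, 19 of the 26 stayed past the threshold every time and all 26 kept their sign. The 19 include the Srsf3 and U2af2 probes detected on no Luc array. No matching share over all called probes is given here, so this count is a description only. Among the 55 probes detected on all 9 arrays, 13 rose and 8 fell, 38.2% against 47.9% of all probes so detected. The rises were 23.6% against 22%, and the falls 14.5% against 25.9%.

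Scaling changes what a fall means here. When each array was scaled to the median of all its probes in place of quantile normalisation, the median difference of all detected probes moved to 0.88, and when it was scaled to the median of probes detected on all 9 arrays, to -0.55. Relative to the median of all probes, both of these scalings give the same values, which leaves 4 distinct scalings beside the one that made the calls. Under all of them 15 of the 17 rises stayed on their side (88.2%, against 76.8% of the rises over all detected probes), as did 7 of the 9 falls (77.8% against 76.3%). The exceptions were the rises of Hnrnpll and U2af2 and the falls of Snrpd1 and of 1 Snrpb probe. With each array's detected probe number added to the fit, 0 of the 80 splicing probes and 0 of all 13641 detected probes passed (limma). Every Luc array had a lower number than every knockdown array. The fit can therefore hardly separate this number from knockdown, and the lost calls decide nothing about either.

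**Figure D2:**
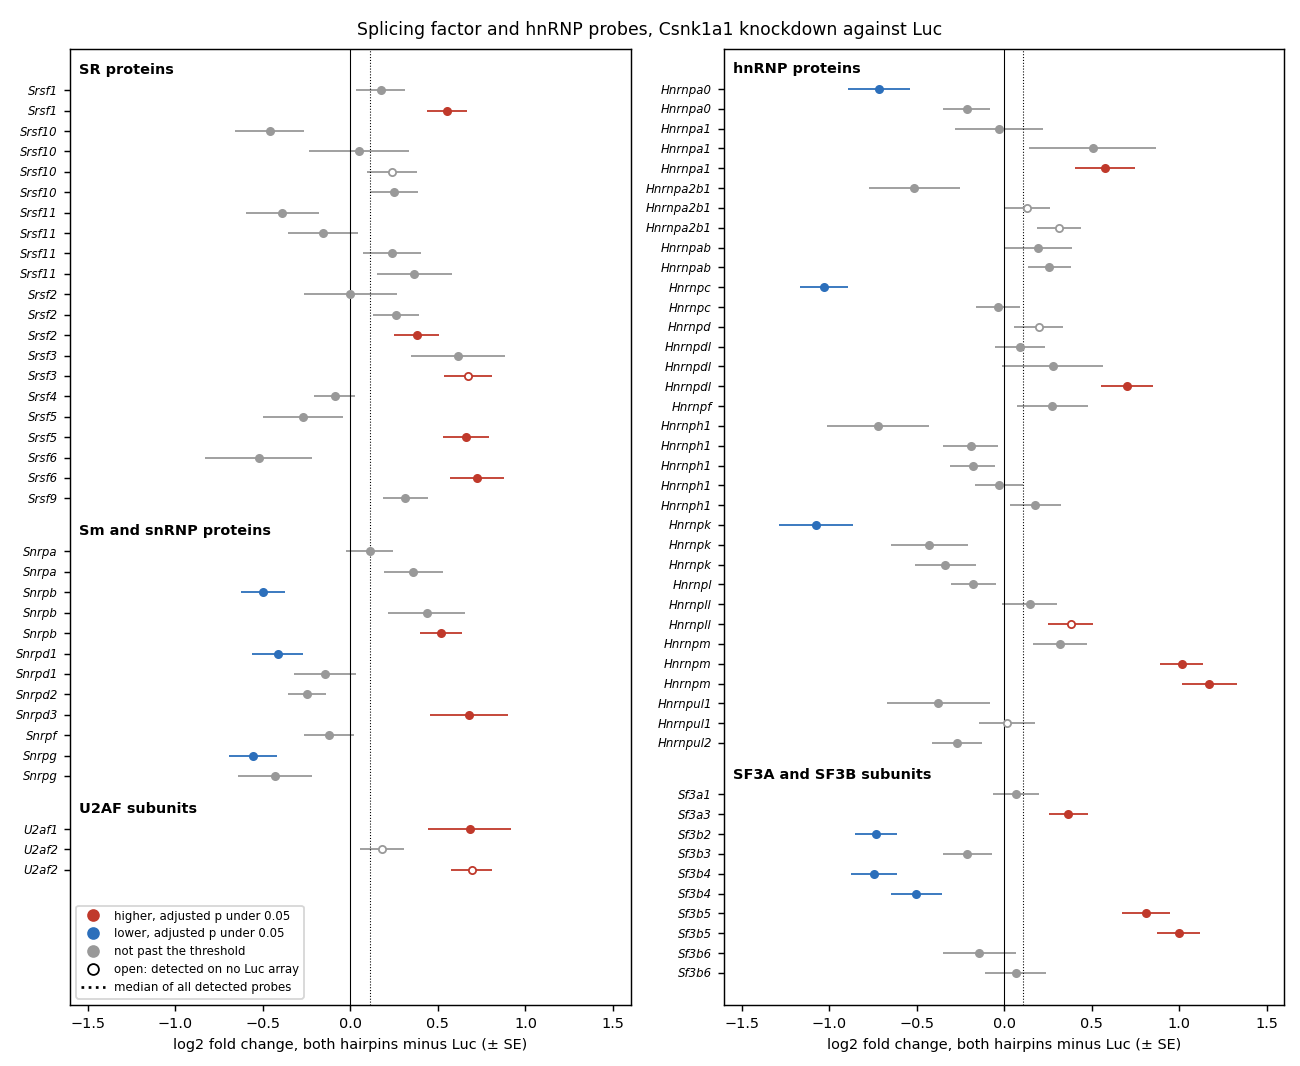
Log2 difference of both hairpins minus Luc (x axis, ± SE) for each of the 80 detected splicing probes, by family and gene. Red points rose and blue points fell at an adjusted p under 0.05, grey points did not pass, open points were detected on no Luc array, and the dotted line is the median of all detected probes, 0.11. Calls ran from -1.07 for Hnrnpk to 1.17 for Hnrnpm.

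The family of the Sm proteins, the ring on the spliceosomal RNAs, also holds the U1 protein Snrpa, which is outside the ring. It had 2 rises and 3 falls among 12 probes, 41.7% called against 40.2% of all detected probes. Snrpg, a small ring member, fell. Its probe ILMN_2975640 had log2 levels of 10.30, 10.23 and 10.07 with hairpin 94, 10.25, 10.07 and 9.69 with hairpin 97, and 10.70, 10.67 and 10.62 with Luc. Every knockdown array lay below every Luc array, and the log2 difference was -0.56 (SE 0.14, limma adjusted p = 0.00908). The deposited signal of this probe before normalisation was nevertheless higher on the knockdown arrays, 1286 to 1870 with hairpin 94 and 1108 to 1925 with hairpin 97, against 808 to 936 with Luc, so the fall is one relative to the brighter arrays. The other Snrpg probe, detected on 5 of the 9 arrays, had a log2 difference of -0.43 and did not pass (adjusted p = 0.13).

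Snrpd3, another ring protein, rose by 0.68 in log2 units (SE 0.22, limma adjusted p = 0.0325). Its log2 levels were 8.32, 8.15 and 7.56 with hairpin 94, 8.72, 8.02 and 8.35 with hairpin 97, and 7.81, 7.09 and 7.63 with Luc. The groups overlapped through the lowest hairpin 94 array, and the call was lost when Luc replicate 2 (adjusted p = 0.126, the highest of the 9) or any of 4 knockdown arrays was left out. Snrpd1 had log2 levels of 10.18, 10.08 and 9.74 with hairpin 94, 10.57, 10.28 and 10.13 with hairpin 97, and 10.48, 10.73 and 10.52 with Luc on the probe that fell. Its log2 difference was -0.42 (SE 0.15, limma adjusted p = 0.0433), 1 hairpin 97 array reached into the Luc range, and the call was lost in 7 of the 9 fits without 1 array, each Luc array included (adjusted p = 0.13 without Luc replicate 2). The other Snrpd1 probe gave -0.15 (adjusted p = 0.53).

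Snrpb, which encodes the Sm protein B, was the 1 of the 26 splicing genes with several probes to be called in both directions (3.85%, against 10% of such genes on the array). Probe ILMN_1239922 had log2 levels of 9.96, 10.05 and 9.87 with hairpin 94, 10.04, 10.09 and 10.28 with hairpin 97, and 9.64, 9.59 and 9.36 with Luc, a rise of 0.52 (SE 0.12, limma adjusted p = 0.00643). Probe ILMN_1223667 had log2 levels of 7.35, 7.55 and 7.24 with hairpin 94, 7.52, 7.46 and 7.51 with hairpin 97, and 7.83, 8.16 and 7.82 with Luc. It fell by 0.50 in log2 units (SE 0.13, limma adjusted p = 0.00992). Neither probe's knockdown arrays overlapped its Luc arrays, and the remaining probe gave a log2 difference of 0.43 without passing (adjusted p = 0.134). The files give no probe positions, so which part of the Snrpb transcript each probe reads was not analysed here. Snrpd2 (log2 difference -0.25, adjusted p = 0.0882), Snrpf (-0.12, adjusted p = 0.516) and both probes of Snrpa, the U1 protein that binds a loop of the RNA (0.36 and 0.11), did not pass. The median log2 difference of the family was -0.14, below the 0.11 of all probes, and relative to all probes it ran from -0.24 to 0.37 over the scalings tried, changing side under both scalings to a median.

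U2AF recognises the end of the intron, U2af2 through the polypyrimidine tract and U2af1 through the AG that follows it. Of 3 probes, 2 were called higher and 0 lower, against 25% higher and 15.2% lower of all detected probes. Only the probe of U2af1 was detected on a Luc array, so the count says little of the family. The median of the family relative to all probes was 0.57, or between -0.02 and 0.57 over the scalings tried. U2af2 probe ILMN_2496310 had log2 levels of 4.90, 5.02 and 5.04 with hairpin 94, 5.16, 5.35 and 5.23 with hairpin 97, and 4.35, 4.61 and 4.32 with Luc. It was detected on all 6 knockdown arrays and on no Luc array, so its Luc level is only a bound: U2af2 was at least 1.13-fold higher with knockdown, against a Luc level set, on each array, at the higher of the lowest detected signal and the probe's own. This is a description, since the probe passed the detection filter only through the knockdown arrays. U2af1 had log2 levels of 5.67, 5.78 and 5.46 with hairpin 94, 6.19, 5.75 and 6.15 with hairpin 97, and 5.79, 4.51 and 5.16 with Luc. Its log2 difference was 0.68 (SE 0.24, limma adjusted p = 0.0409), the groups overlapped through Luc replicate 1, and the call was lost in 7 of the 9 fits without 1 array, with a difference of 0.36 and an adjusted p of 0.165 without Luc replicate 2.

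The SF3A and SF3B subunits, which clamp the U2 particle to the branch point, split within the complex. Of 10 probes, 3 rose and 3 fell, 60% against 40.2% of all probes. Sf3b5, a small subunit of SF3B, rose on both of its probes. Probe ILMN_2975956 had log2 levels of 9.49, 9.50 and 9.64 with hairpin 94, 9.54, 9.64 and 9.52 with hairpin 97, and 8.79, 8.49 and 8.40 with Luc, a difference of 1.00 (SE 0.12, 1.99-fold, limma adjusted p = 0.000273). Probe ILMN_2674936 had log2 levels of 9.42, 9.56 and 9.36 with hairpin 94, 9.32, 9.43 and 9.82 with hairpin 97, and 8.57, 8.69 and 8.76 with Luc. Both probes stood clear of Luc on all 6 knockdown arrays, and the difference of the other probe was 0.81 (SE 0.14, limma adjusted p = 0.0012). Sf3a3, a subunit of SF3A, rose by 0.37 in log2 units (SE 0.11, limma adjusted p = 0.0233), a call lost without Luc replicate 1, hairpin 97 replicate 4 or hairpin 97 replicate 5 (highest adjusted p = 0.0722).

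Sf3b4 and Sf3b2, subunits that bind each other within SF3B, fell. Sf3b4 probe ILMN_2612502 had log2 levels of 8.58, 8.47 and 8.34 with hairpin 94, 8.42, 8.67 and 8.74 with hairpin 97, and 9.46, 9.31 and 9.07 with Luc. All knockdown arrays lay below Luc, with a log2 difference of -0.75 (SE 0.13, limma adjusted p = 0.00165). The dim second Sf3b4 probe, detected on 6 of the 9 arrays, gave -0.50 (SE 0.15, limma adjusted p = 0.0192) and lost its call without Luc replicate 3 (difference -0.34, adjusted p = 0.0718). Sf3b2 had log2 levels of 10.25, 10.44 and 10.40 with hairpin 94, 10.63, 10.56 and 10.56 with hairpin 97, and 11.19, 11.40 and 11.03 with Luc, again without overlap. Its log2 difference was -0.74 (SE 0.12, limma adjusted p = 0.00102), while its deposited signal was 1260 to 2142 with hairpin 94 and 1730 to 2500 with hairpin 97, against 1076 to 1327 with Luc. Relative to all probes the fall of Sf3b2 lay between -0.84 and -0.23 over the scalings tried, and that of this Sf3b4 probe between -0.85 and -0.22. Sf3a1 (0.07), Sf3b3 (-0.21) and both probes of Sf3b6, the subunit next to the branch adenosine (-0.14 and 0.06), did not pass. Sf3b1, the largest subunit, and Sf3a2 had no detected probe.

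**Figure D3:**
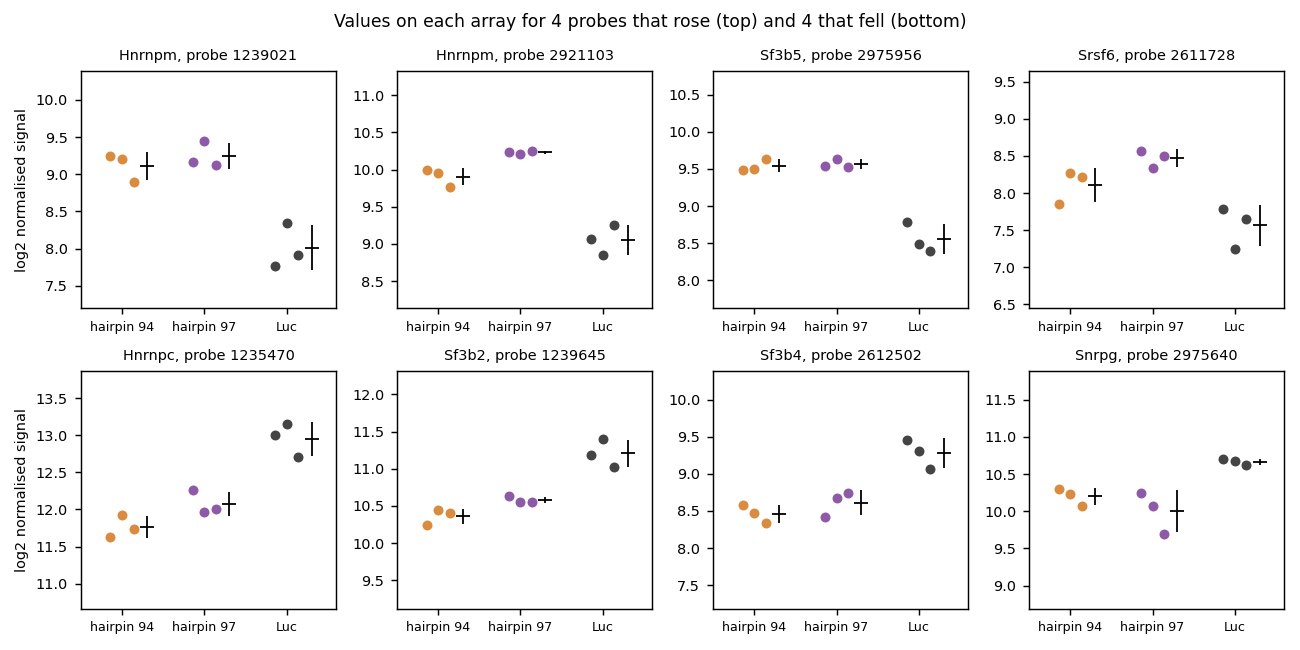
Log2 normalised signal on each array for 4 probes that rose (top row: 2 of Hnrnpm, 1 each of Sf3b5 and Srsf6) and 4 that fell (bottom row: Hnrnpc, Sf3b2, Sf3b4 and Snrpg). Points are single arrays, the black bar is the mean ± SD of 3 arrays, and each panel spans the same range of log2 signal around the probe's own mean. In all 8 panels the 6 knockdown arrays lie on one side of the 3 Luc arrays.

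Among the SR proteins 5 of 21 probes rose and 0 fell. The rises were 23.8% of the SR probes against 25% of all detected probes, and the median log2 difference was 0.24 against 0.11 over all. Of the 21 probes, 13 lay above the median of all probes, and 13 to 15 did so under the scalings tried, although 8 SR probes passed as lower when arrays were scaled to the probes detected on all 9, where 60.4% of all detected probes did, and 1 under cyclic loess, where 15.1% of all did. Of the 19 SR probes detected on at least 1 Luc array, 4 rose, 21.1% against 20% of all probes so detected. Each of the 5 rises was a different gene: Srsf1, Srsf2, Srsf3, Srsf5 and Srsf6.

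Srsf1, the prototype of the family and an oncogene when overexpressed, rose on 1 of its 2 probes. Probe ILMN_2591814 had log2 levels of 10.49, 10.64 and 10.55 with hairpin 94, 10.70, 10.79 and 10.52 with hairpin 97, and 10.12, 10.05 and 10.01 with Luc. The groups did not overlap (log2 difference 0.55, SE 0.11, limma adjusted p = 0.00334), while the other probe gave 0.17 (adjusted p = 0.343). Srsf6 probe ILMN_2611728 had log2 levels of 7.85, 8.27 and 8.21 with hairpin 94, 8.57, 8.33 and 8.50 with hairpin 97, and 7.79, 7.25 and 7.65 with Luc. It was the largest rise of an SR probe, at 0.72 (SE 0.15, limma adjusted p = 0.00411), with the lowest hairpin 94 array just above the highest Luc array. The dim second Srsf6 probe went the other way without passing (-0.52, SE 0.31, adjusted p = 0.195).

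Srsf5 showed the same pattern, with log2 levels of 7.97, 7.71 and 7.67 with hairpin 94, 8.05, 7.91 and 8.02 with hairpin 97, and 7.47, 7.07 and 7.15 with Luc on the probe that rose. That difference was 0.66 (SE 0.13, limma adjusted p = 0.00291), against -0.27 (adjusted p = 0.362) on its other probe. Srsf3, the smallest SR protein, which also takes part in export of messenger RNA, had log2 levels of 5.13, 5.17 and 5.25 with hairpin 94, 5.35, 5.25 and 5.08 with hairpin 97, and 4.83, 4.29 and 4.47 with Luc on probe ILMN_2733398. It was detected on no Luc array and was at least 1.20-fold higher with knockdown, again a description of a probe that entered through the knockdown arrays. The second Srsf3 probe had a log2 difference of 0.61 but 1 Luc array above all others, and did not pass (adjusted p = 0.0893).

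Srsf2, an exon enhancer binding protein, rose on 1 of 3 probes, by 0.38 in log2 units (SE 0.13, limma adjusted p = 0.0376). Its log2 levels there were 9.65, 9.29 and 9.28 with hairpin 94, 9.40, 9.52 and 9.62 with hairpin 97, and 9.17, 8.95 and 9.12 with Luc. No array overlapped, yet the call was lost in 5 of the 9 fits without 1 array, with an adjusted p of 0.114 without Luc replicate 2. The other Srsf2 probes gave 0.26 and 0.00. Srsf9 (0.31, adjusted p = 0.0682), Srsf4 (-0.09) and the 4 probes each of Srsf10 (-0.46 to 0.25) and Srsf11 (-0.39 to 0.36) did not pass.

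The hnRNP proteins formed the biggest family and had 5 rises and 3 falls among 34 probes, 23.5% against 40.2% of all probes. Hnrnpm, a regulator of exon skipping, had the largest rises of any splicing probe. Probe ILMN_1239021 had log2 levels of 9.25, 9.20 and 8.90 with hairpin 94, 9.17, 9.45 and 9.13 with hairpin 97, and 7.77, 8.35 and 7.92 with Luc, a difference of 1.17 (SE 0.16, 2.25-fold, limma adjusted p = 0.000407). Probe ILMN_2921103 had log2 levels of 9.99, 9.95 and 9.77 with hairpin 94, 10.23, 10.21 and 10.25 with hairpin 97, and 9.07, 8.85 and 9.25 with Luc. All knockdown arrays were above Luc on both probes, and the second difference was 1.01 (SE 0.12, 2.02-fold, limma adjusted p = 0.000262). The remaining Hnrnpm probe gave 0.32 and did not pass (adjusted p = 0.122), its lowest hairpin 94 array falling below Luc. Relative to all probes, the 2 rises lay between 0.82 and 1.74 over the scalings tried.

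Hnrnpdl, a relative of the RNA decay factor Hnrnpd, rose on 1 of 3 probes. Its log2 levels there were 7.41, 7.98 and 7.74 with hairpin 94, 7.83, 7.84 and 7.63 with hairpin 97, and 6.89, 6.97 and 7.25 with Luc, without overlap (difference 0.70, SE 0.15, limma adjusted p = 0.00409). The other Hnrnpdl probes gave 0.28 and 0.09. Hnrnpa1, which represses exons through silencer elements, rose by 0.57 on the log2 scale on 1 of 3 probes (SE 0.17, limma adjusted p = 0.0209). That probe had log2 levels of 8.17, 8.13 and 7.40 with hairpin 94, 8.16, 8.16 and 8.35 with hairpin 97, and 7.48, 7.50 and 7.48 with Luc, so hairpin 94 replicate 3 lay below all Luc arrays. Hnrnpll, known for regulating Cd45 exons in lymphocytes, was counted as higher on a probe detected on no Luc array, which likewise entered through the knockdown arrays; no fold is given because the bound was under 1.

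The falls in the family were Hnrnpc, Hnrnpk and Hnrnpa0, each on 1 probe. Hnrnpc, which binds uridine tracts, had log2 levels of 11.63, 11.93 and 11.74 with hairpin 94, 12.26, 11.96 and 12.01 with hairpin 97, and 13.00, 13.15 and 12.70 with Luc on probe ILMN_1235470. The knockdown arrays lay wholly below Luc, with a log2 difference of -1.03 (SE 0.14, 2.04-fold lower, limma adjusted p = 0.000407). On the deposited scale this probe read 3384 to 5692 with hairpin 94 and 4689 to 7151 with hairpin 97, against 3476 to 4686 with Luc, so the signal itself was not lower and the fall is one against the rest of the array. Its second probe had a log2 difference of -0.03 (SE 0.13, adjusted p = 0.85).

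Hnrnpk, a cytidine tract binding protein, fell on a dim probe with log2 levels of 4.75, 4.64 and 5.0 with hairpin 94, 4.79, 5.14 and 4.71 with hairpin 97, and 5.29, 6.23 and 6.22 with Luc. The difference was -1.07 (SE 0.21, limma adjusted p = 0.0028), but the deposited signal, in which background is left in, spanned only 100.3 to 115.5 with hairpin 94, 105.2 to 115.7 with hairpin 97 and 111.1 to 122.9 with Luc. The other Hnrnpk probes gave -0.43 (adjusted p = 0.14) and -0.34 (adjusted p = 0.152). Hnrnpa0 also fell on a dim probe, by 0.72 in log2 units (SE 0.18, limma adjusted p = 0.00864), with a log2 difference of -0.22 on its other probe (adjusted p = 0.226). Hnrnpl, which binds CA repeats, had a log2 difference of -0.18 (SE 0.13, adjusted p = 0.303). The 5 probes of Hnrnph1, a G tract binding protein, ran from -0.72 to 0.18 and did not pass. No probe of Hnrnpa3, Hnrnph2, Hnrnph3, Hnrnpr or Hnrnpu was detected on 3 arrays, nor one of Snrpb2, Snrpe, Srsf12 or U2af1l4.

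Probes of the same gene often differed. Of 26 splicing genes with 2 or more detected probes, 15 had log2 differences of 1 sign on all of them, 57.7% against 48.3% of the 2669 such genes on the array. Over the 16 genes with several probes detected on all 9 arrays, 12 had 1 sign, 75% against 52.5% over the array. Sf3b4 and Sf3b5, 2 of the 26, had all of their probes called the same way, against 232 of the 2669 genes on the array. The median distance between the highest and lowest probe of a splicing gene was 0.51 on the log2 scale, against 0.55 over the array, and it reached 1.25 for Srsf6 and 1.02 for Snrpb. These genes are known to make transcripts that differ in their ends and in exons that trigger decay, and the probes' target positions are not used here.

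**Figure D4:**
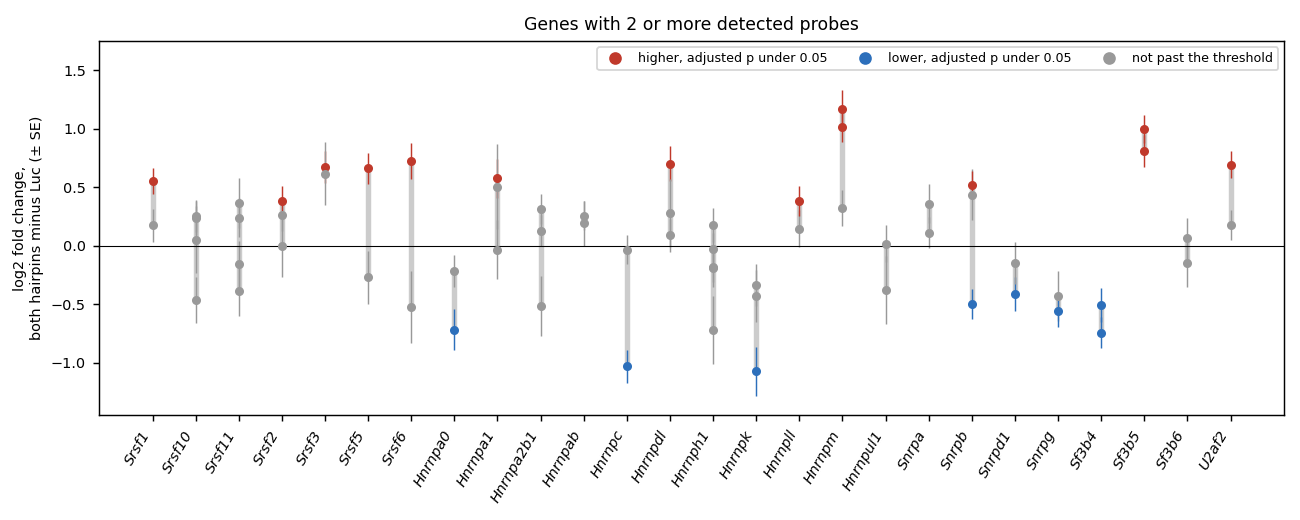
Log2 difference of both hairpins minus Luc (y axis, ± SE) for every probe of the 26 splicing genes with 2 or more detected probes; grey bars join probes of 1 gene. Red and blue points rose and fell at an adjusted p under 0.05. Both probes of Sf3b5 are red and both of Sf3b4 are blue, while Snrpb has 1 red and 1 blue probe.

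Promoters are shown for 2 genes that rose and 2 that fell with each hairpin, chosen after their values were seen, to set side by side the start regions of genes that moved in opposite directions. Each runs from 250 bases before to 50 bases after the annotated start (RefSeq, GRCm38.p6), 5′ to 3′ on the gene's strand, and capitals mark matches to the motifs searched on both strands. Hnrnpm and Srsf6 rose.
Hnrnpm, chr17:33685409-33685708, minus strand: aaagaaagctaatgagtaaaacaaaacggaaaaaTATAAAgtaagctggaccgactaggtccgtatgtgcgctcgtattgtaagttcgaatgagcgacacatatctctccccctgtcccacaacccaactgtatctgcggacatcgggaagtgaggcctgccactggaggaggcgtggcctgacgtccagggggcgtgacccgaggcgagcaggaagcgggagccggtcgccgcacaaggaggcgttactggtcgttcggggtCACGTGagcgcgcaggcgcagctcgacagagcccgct
Srsf6, chr2:162931258-162931557, plus strand: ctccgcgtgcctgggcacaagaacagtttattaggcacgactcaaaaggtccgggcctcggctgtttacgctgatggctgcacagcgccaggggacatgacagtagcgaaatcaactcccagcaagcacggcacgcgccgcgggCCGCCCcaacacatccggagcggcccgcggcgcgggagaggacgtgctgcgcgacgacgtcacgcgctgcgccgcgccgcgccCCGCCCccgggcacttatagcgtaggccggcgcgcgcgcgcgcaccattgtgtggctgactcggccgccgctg
Hnrnpc and Sf3b2 fell; of the 2 starts listed for Sf3b2 the first is shown.
Hnrnpc, chr14:52103972-52104271, minus strand: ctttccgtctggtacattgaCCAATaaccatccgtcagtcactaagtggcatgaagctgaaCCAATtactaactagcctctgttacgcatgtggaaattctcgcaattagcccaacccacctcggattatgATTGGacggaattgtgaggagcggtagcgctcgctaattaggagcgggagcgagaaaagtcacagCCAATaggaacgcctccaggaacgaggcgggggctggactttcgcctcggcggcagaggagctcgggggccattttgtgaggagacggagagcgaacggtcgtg
Sf3b2, chr19:5295408-5295707, minus strand: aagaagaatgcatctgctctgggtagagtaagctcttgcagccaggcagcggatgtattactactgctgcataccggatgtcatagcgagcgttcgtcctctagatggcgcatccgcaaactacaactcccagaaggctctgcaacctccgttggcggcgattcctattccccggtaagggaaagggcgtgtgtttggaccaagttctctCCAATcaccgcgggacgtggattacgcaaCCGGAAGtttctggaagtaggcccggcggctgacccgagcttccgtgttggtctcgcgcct
The Hnrnpm window held 1 E-box (CACGTG) and 1 TATA box (TATAAA), and that of Srsf6 held 2 GC boxes (GGGCGG). The Hnrnpc window held 4 CCAAT boxes, the letters bound by NFY, and that of Sf3b2 held 1 CCAAT box and 1 ETS core (CCGGAAG).

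Promoter entries were matched for 33 of the 40 detected splicing genes. The ETS core was in 33.3% of these 33 windows and in 9.12% of all 27025 promoters of the table, the GC box in 66.7% and 35.9%, and CCAAT in 57.6% and 37.9%. The TATA box was in 18.2% of the splicing windows and 14.2% of all, the E-box in 9.09% and 7.24%, the YY1 letters AAGATGGC in 6.06% and 2.88%, and the NRF1 motif, searched as its palindromic core, in 0% and 0.977%. The splicing windows had a median GC content of 60%, against 52.7% over all, and motifs rich in G and C move with that content. A match is a description of these letters only.

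Each hairpin alone was set against the same 3 Luc arrays, so the results of the hairpins are not independent of each other. With hairpin 94, 12 of the 80 splicing probes rose and 11 fell, 28.7% against 32.4% of all detected probes (20% of all higher and 12.3% lower). With hairpin 97, 18 rose and 7 fell, 31.2% against 32.9% of all (20.6% higher and 12.3% lower). Both single comparisons called 11 of the same probes higher and 7 lower, 5 passed with hairpin 94 alone and 7 with hairpin 97 alone. No matching share over all detected probes is given here, and the Luc arrays are shared, so this overlap is a description only. The counts of both comparisons depended on single arrays, as did those of all detected probes. With hairpin 94 there were 7 rises without its replicate 2 and 5 falls without its replicate 3, in fits that called 23.4% and 25.5% of all probes. With hairpin 97 there were 12 rises without its replicate 4 or its replicate 6, in fits that called 22.8% and 22.2% of all.

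The 2 Hnrnpm probes had log2 differences of 1.10 and 0.85 with hairpin 94 and 1.24 and 1.18 with hairpin 97, all past the threshold (limma adjusted p from 0.000462 to 0.00186). Sf3b5 had 0.99 and 0.77 with hairpin 94 and 1.01 and 0.85 with hairpin 97. Hnrnpc fell by 1.19 on the log2 scale with hairpin 94 and by 0.88 with hairpin 97, and Sf3b2 by 0.85 with hairpin 94 and by 0.62 with hairpin 97. Hnrnpa2b1, an hnRNP close to Hnrnpa1, passed with hairpin 94 on 1 of 3 probes. There its log2 levels were 7.19, 6.87 and 6.28 with hairpin 94, 7.62, 7.20 and 7.71 with hairpin 97, and 8.05, 7.0 and 7.93 with Luc. The groups overlapped through Luc replicate 2. The log2 difference was -0.88 with hairpin 94 (SE 0.30, limma adjusted p = 0.0447), a call lost in 7 of the 9 fits without 1 array (adjusted p = 0.163 without hairpin 94 replicate 3), and -0.15 with hairpin 97 (adjusted p = 0.731). A second probe of Hnrnpk showed -0.83 with hairpin 94 (SE 0.25, limma adjusted p = 0.0286; 0.105 without hairpin 94 replicate 3) and -0.03 with hairpin 97.

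Between the hairpins themselves, 0 of the 80 splicing probes passed in hairpin 97 minus hairpin 94 (limma, smallest adjusted p = 0.236), against 0.139% of all detected probes (0.0293% higher and 0.11% lower). An unadjusted p under 0.05 was seen for 7 of the 80, against 1166 of all 13641 detected probes. So the differences of Hnrnpa2b1 (0.73, SE 0.30, adjusted p = 0.525) and Hnrnpk (0.81, SE 0.25, adjusted p = 0.344) between hairpins were not past the threshold. The difference nearest to it was that of Hnrnpab probe ILMN_1259056. It had log2 levels of 5.14, 5.22 and 5.09 with hairpin 97, 5.99, 5.89 and 6.08 with hairpin 94, and 5.97, 4.94 and 5.23 with Luc. The hairpin 97 arrays lay wholly below those of hairpin 94 (-0.84, SE 0.22, limma adjusted p = 0.236). Under 5 alternatives the probe passed as lower (limma adjusted p from 0.00366 to 0.0378). In each of these fits it was the only splicing probe called, 1.25% of the 80, against 0.315% to 1.39% of all detected probes. The other Hnrnpab probe ran the other way, 0.28 higher with hairpin 97 (adjusted p = 0.654).

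Taking all members, 61 of the 80 probes had a higher mean with hairpin 97 than with hairpin 94, against 6993 of all 13641 detected probes. The median log2 difference was 0.13 against 0.01 over all. The arrays of hairpin 97 lay wholly above those of hairpin 94 for 12 of the 80 probes and wholly below for 2, while over all detected probes 10.5% lay above and 9.7% below. The tilt was not particular to these families. Of the 203 probes of other splicing genes described below, 134 had a higher mean with hairpin 97, 34 lay wholly above and 6 wholly below. The mean log2 level of the 80 probes was 7.40, 7.31 and 7.35 with hairpin 97 and 7.25, 7.29 and 7.15 with hairpin 94. Of the marker sums given above, that of the cell division list was higher with hairpin 97 than with hairpin 94, and those of the sort gate and leukemia program, the mast cell, basophil and eosinophil, and the T and NK cell lists were lower, each without overlap. The part of these markers in the difference was not tested.

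Other splicing genes, in 5 lists named by function, had 203 detected probes, of which 60 rose and 40 fell for both hairpins minus Luc, 49.3% against 40.2% of all detected probes. The genes named in each list are those with the largest changes. Among PRPF factors, helicases and proteins of the U4/U6.U5 particle, 19 of 62 probes rose and 10 fell, 30.6% and 16.1%. Over all detected probes the shares were 25% and 15.2%. Usp39, a tri-snRNP protein, had on probe ILMN_1244799 log2 levels of 6.76, 6.66 and 6.82 with hairpin 94, 6.83, 6.81 and 6.76 with hairpin 97, and 4.56, 4.94 and 5.07 with Luc. Its difference on this probe was 1.91 (SE 0.13, 3.77-fold, limma adjusted p = 6.49e-05), without overlap. The Luc levels lay near the detection limit, as the lowest levels of a detected probe on the Luc arrays were 5.07, 4.89 and 4.88. The size of this fold is therefore uncertain. The other 3 Usp39 probes also rose, by 0.50 to 1.01. Prpf8, the core protein of the catalytic centre, rose by 1.35 on the log2 scale on 1 of 2 probes, with 0.32 on the other, and Prpf38a by 1.34 on 1 of 2, with 0.20 on the other. Dhx15, a helicase of spliceosome disassembly, rose on both probes, by 1.22 and 0.83.

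In the same list Puf60, a relative of U2af2, fell by 0.95 on the log2 scale on 1 of 3 probes (SE 0.11, limma adjusted p = 0.000177), with -0.23 and 0.10 on the others. Its log2 levels on the called probe were 10.92, 10.80 and 10.94 with hairpin 94, 10.88, 10.86 and 10.96 with hairpin 97, and 11.83, 11.91 and 11.77 with Luc. Ddx39b, the helicase that works with U2AF, was called both ways, with a log2 difference of -0.91 on probe ILMN_2670895 and 0.89 on probe ILMN_3007669. Ppih likewise had -0.90 on a probe detected on 3 arrays and 0.75 on a probe detected on all 9. Of the Snrnp proteins, 3 of 7 probes rose and 2 fell, 42.9% and 28.6% against 25% and 15.2% of all detected probes. Snrnp200, the helicase that unwinds U4 from U6, was at 1.08 and Snrnp48 of the minor spliceosome at -0.71.

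LSm proteins and the SMN complex, which loads Sm rings on RNA, had 7 rises and 11 falls among 31 probes, 58.1% called against 40.2% of all. The rises made up 22.6% against 25% of all detected probes, and the falls 35.5% against 15.2%. Gemin6 of the SMN complex fell on both probes, by 0.87 and 0.51 on the log2 scale, and Lsm3 fell by 0.81, while Lsm8 rose by 0.66. Other genes of the list were called both ways. Prmt5, which methylates Sm proteins, had log2 differences of -0.83, -0.16 and 0.35, the first and last past the threshold. Clns1a, the chaperone that hands Sm proteins to that complex, had 0.67 and -0.55 past the threshold and -0.30 on a probe that did not pass. Gemin7 was at least 1.18-fold higher with knockdown on a probe detected on no Luc array and had a log2 difference of -0.46 on its other probe (adjusted p = 0.0391). Among kinases of SR proteins, SR-related and exon junction proteins, 9 of 30 probes rose and 4 fell, 30% and 13.3% against 25% and 15.2% of all. Tnpo3, the importin of SR proteins, had a log2 difference of 1.27, and Eif4a3, the anchor of the exon junction complex, of -0.62. Thrap3 rose on 1 of 2 probes (0.79, and 0.23 on the other), and the SR kinase Clk4 on 1 of 4 (0.67, and -0.10 to 0.40 on the others). Srpk3 fell by 0.57 on a probe detected on 3 arrays, and the SR kinase Clk2 was called both ways, at 0.45 and -0.39.

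Other RNA-binding regulators held 22 rises and 13 falls among 73 probes, 30.1% and 17.8% against 25% and 15.2% of all detected probes. Pcbp1, a poly(C) binding protein, had log2 levels of 10.21, 10.08 and 9.87 with hairpin 94, 10.39, 10.48 and 10.62 with hairpin 97, and 8.87, 9.40 and 8.79 with Luc, a difference of 1.26 (SE 0.16, limma adjusted p = 0.000282). Its relative Pcbp2 rose on both probes, by 1.05 and 0.61 on the log2 scale. Raly, an hnRNP related to Hnrnpc, was at least 1.33-fold higher on a probe detected on no Luc array, with a log2 difference of -0.21 on its other probe (adjusted p = 0.182). Celf1 fell on 2 of 3 probes, by 1.05 and 0.70, with 0.26 on the remaining one. Msi2, an RNA-binding protein known to sustain myeloid leukemia stem cells, was called both ways, at -0.92 on probe ILMN_2687905 and 0.49 on probe ILMN_1220186, and so was Rbm5, at -0.80 and 0.52. In hairpin 97 minus hairpin 94, 0 of these 203 probes passed (limma, against 0.139% of all).

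**Figure D5:**
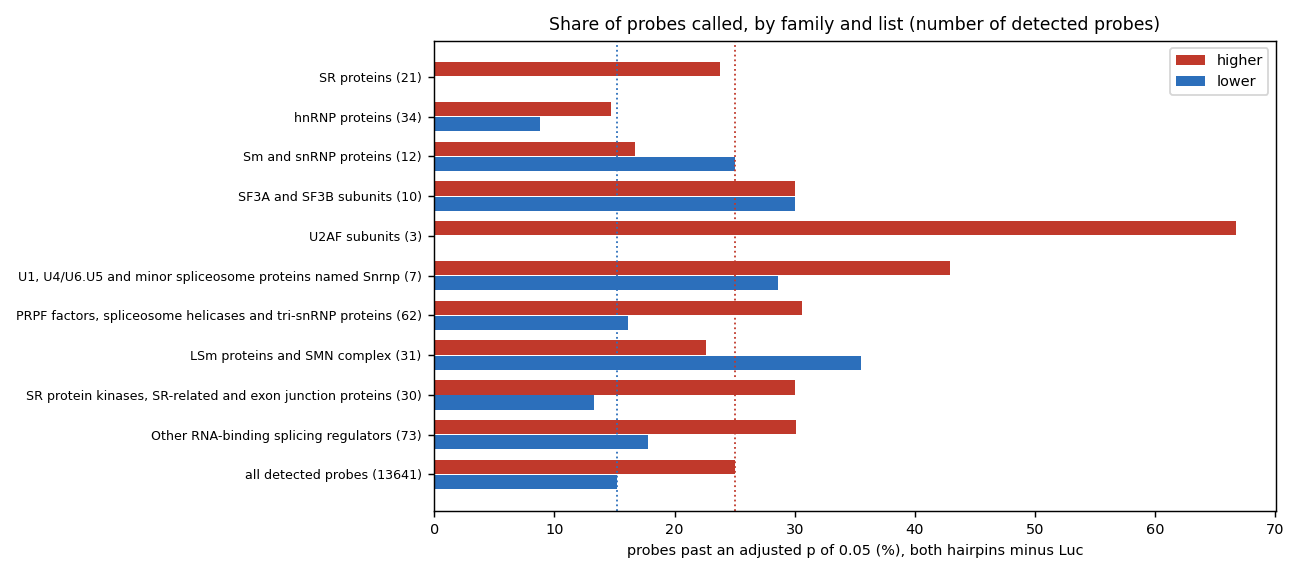
Share of detected probes past an adjusted p of 0.05 for both hairpins minus Luc (x axis, percent), higher in red and lower in blue, for the 5 families, the 5 lists of other splicing genes and all 13641 detected probes, with the number of probes in brackets. Dotted lines mark the shares over all detected probes, 25% higher and 15.2% lower. The SR and U2AF families have 0 probes called lower.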

How the data were processed

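Total RNA was labelled with biotin and hybridised to Illumina bead arrays, per the labels' protocols. The authors deposited, per probe and array, an intensity (average bead signal, per the file headers), which still held its background as judged from the values, and a detection p-value. The deposited series matrix holds log2 values; they kept the rank order of the signals within each array and shared 1 distribution, with a median of 6.61 in each column, and their direction and any centring were judged from this. The software behind the files is not given in the sources used here.

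The intensities were background corrected by detection p, given an offset of 16, quantile normalised and taken to log2 (function neqc, limma 3.58.1, under R 4.3.3). Group means were fitted with lmFit to the 13641 probes with a detection p under 0.05 on at least 3 of the 9 arrays, and 4 contrasts were tested with eBayes, with Benjamini-Hochberg adjustment over all of them and a call at an adjusted p under 0.05. The fit was tested on simulated data. Symbols came from the platform annotation, which gave 34885 of 45281 probes 1 symbol, 18 several and 10378 none; all 120 matching probes had a gene number in GRCm38.p6. No genome coordinates of probes were used, and reads of close paralogs or pseudogenes by a probe were not checked. With 3 arrays per group their number limits the precision. Arrays of a group correlated at 0.958 to 0.990 and no columns were identical. The samples of Luc and hairpin 94 share replicate numbers 1 to 3.

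Probes named with values were the 10 largest rises and falls past the threshold without overlap for both hairpins, the 5 largest in each other contrast, genes with opposite calls, the probe of highest level in each family, 15 genes listed by name, and up to 3 rises and falls per other list; further members were named after their values were seen. The members and lists were chosen with earlier results of these data known. Srsf7 and Snrpn, listed by name, had no probe under the rule. Alternatives were other background corrections, normalisations, filters, probe summaries, spread models, a brightness covariate, a replicate block, and leaving out single arrays.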

Additional observations from a re-analysis of the deposited data

How the results depend on the processing

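For both hairpins minus Luc the counts were 17 higher and 9 lower. They became 63 higher and 0 lower with arrays scaled to the median of all probes (72.9% of all detected probes higher). Scaled to the probes detected on every array, they were 14 higher and 36 lower (11.2% and 60.4% of all). With the brightest probe per gene (40 genes) 11 were higher and 5 lower, 40% called against 43.2% of all genes. With probes averaged per gene 8 were higher and 6 lower, 35% against 39.6%. With each array's detected probe number in the fit they were 0 and 0, and 0 of all 13641 probes passed too. That number can hardly be separated from knockdown here. Without single arrays they ranged from 13 to 21 higher and from 7 to 12 lower, in fits that called 33.5% to 40.5% of all detected probes. For hairpin 94 (12 higher, 11 lower) the same 2 scalings gave 55 and 0 (68.5% of all higher) and 9 and 37 (9.85% and 56.1% of all). The brightest probe gave 7 and 7, the mean 4 and 5, and the detected probe number 0 and 0. No detection filter, array weights and a fit of only these 2 groups each gave 7 lower, with 10, 10 and 8 higher. The range without single arrays was 7 to 16 higher and 5 to 12 lower, in fits that called 23.4% to 35% of all. For hairpin 97 (18 higher, 7 lower) the 2 scalings gave 60 and 0 (69% of all higher) and 15 and 33 (9.97% and 57.6% of all). The brightest probe gave 13 and 4, the mean 9 and 6, and the detected probe number 0 and 0. Without single arrays there were 12 to 23 higher and 5 to 9 lower, in fits that called 22.2% to 34.6% of all. For hairpin 97 minus hairpin 94 (0 and 0), Hnrnpab was called lower, 1 probe, with cyclic loess, scaling to the probes detected on all 9, array weights, a fit of these 2 groups and without Luc replicate 1 (0 to 1 without single arrays). That is 1.25% of the splicing probes, in fits that called 0.315% to 1.39% of all detected probes. Gene-level counts are out of 40: for hairpin 94, 35% of genes were called with the brightest probe and 22.5% with probes averaged, against 35.5% and 31.8% of all genes. The cause of these changes was not tested.

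With the replicate number of Luc and hairpin 94 as a block, 5 splicing probes rose and 5 fell for hairpin 94 minus Luc, 12.5% against 18.9% of all detected probes. Deviations of same-numbered arrays correlated at 0.07, 0.05 and 0.14, and those of arrays with different numbers at -0.13 to 0.08. These values do not settle whether the numbers pair the samples. The labels do not say so, and the main fit has no block. Luc replicate 1 correlated best with hairpin 94 replicate 2, while Luc replicates 2 and 3 each correlated best with the hairpin 94 array of the same number.

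Scaling to all probes turned these log2 differences for both hairpins above 0: Hnrnpc 0.34 and 1.36, Sf3b4 0.67, Sf3b2 0.65, Hnrnpa0 0.20, Snrpg 0.79, Snrpb 0.95, Hnrnpa2b1 0.92, Hnrnpk 0.99 and 0.54, Snrpd2 1.12, Hnrnpa1 0.44, Hnrnpl 1.16, Snrpd1 0.94 and 1.22, and Srsf2 0.50. For hairpin 94 it turned Hnrnpc to 0.16, Hnrnpa2b1 to 0.52, Sf3b2 to 0.51 and Hnrnpk to 0.57, and for hairpin 97 Hnrnpc to 0.52, Hnrnpa0 to 0.19, Sf3b4 to 0.76 and Snrpg to 0.71. Scaling to the probes detected on all 9 arrays turned U2af2 to -0.57 and -1.22, Srsf3 to -0.51 and -0.41, U2af1 to -0.051 and Hnrnpa2b1 to -1.19 and -0.96. The covariate turned Hnrnpdl to -0.059 for both hairpins and -0.084 for hairpin 94. Probes near the detection limit, such as those of U2af2, Srsf3 and the Hnrnpk probe that fell, are limited by their signal over background.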
